A study of Apis mellifera with 12 samples.

Results

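The microRNAs (miRNAs) miR-277, miR-317 and miR-34 are encoded in 1 genomic cluster, and their levels were compared in fat body pools from workers of the honey bee, Apis mellifera. They were chosen by name, as the reporters ame-miR-277, ame-miR-317 and ame-miR-34, which are 3 of the 168 bee miRNA reporters on the array. The array carried no other arm or star form under these names. Fat body lines the abdominal wall of the bee, stores nutrients and makes yolk protein. The control bees had been injected as newly emerged workers with dsRNA-GFP, a double-stranded RNA (dsRNA) matching the jellyfish protein GFP, which bees do not have. The other group had been injected in the same way with dsRNA-Vg, which matches vitellogenin, a yolk precursor that also circulates in sterile workers. Both groups received 2 µL of dsRNA at 10 µg/µL, were sampled as adults 15 days old, and are called foragers in the labels. Each group held 6 pools, and each pool combined 400 ng of small RNA from each of 5 bees into 2 µg for 1 array. All 12 pools had therefore been injected, and uninjected bees were not analysed here. The vitellogenin transcript was not analysed here either, so the depth of the knockdown is not part of these data.

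An miRNA is a short RNA that guides a silencing complex to messenger RNAs, mainly by pairing of its seed, the bases 2 to 8 counted from the 5′ end. In the fruit fly, miR-277 restrains genes of branched-chain amino acid breakdown and bears on lifespan, and miR-34 rises with adult age and protects the ageing brain. The fly miR-317 lies in the same cluster and has been tied to immune responses and to female reproduction. Members of a cluster can be cut from a shared primary transcript, after which processing and decay can set their mature levels apart.

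The mature sequences are shown because the 3 miRNAs, although neighbours in the genome, do not share a seed. They were read from the target column of the deposited scanner files, 5′ to 3′, with the seed in capitals.
miR-277: uAAAUGCAcuaucugguacgaca
miR-317: uGAACACAgcuggugguaucucagu
miR-34: uGGCAGUGuuguuagcugguug
The sequences are 23, 25 and 22 bases long in that order. The seeds of miR-277 and miR-317 matched at 4 positions, and the seed of miR-34 matched each of the other seeds at 1 position. None of the other reporters carried any of the 3 seeds, and the closest differed from each seed at 2 bases. Over whole sequences aligned without gaps, miR-277 and miR-317 matched at no more than 12 positions, miR-317 and miR-34 at 10, and miR-277 and miR-34 at 8. The most similar other reporters matched miR-317 at 13 positions (miR-2944) and miR-34 at 14 positions (miR-7). Coordinates are left out because no build is named in the files. In the RefSeq annotation of assembly Amel_HAv3.1 the 3 genes lie on linkage group LG5 in the order miR-317, miR-277, miR-34, within the span of the protein-coding gene LOC102655904. That table lists 1 other miRNA gene among them, miR-3730, between miR-277 and miR-34, and 1 long non-coding RNA gene, LOC107964423, between miR-317 and miR-277.

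The array measured each miRNA in 18 spots, with 1 dye. Levels below are log2 intensities after background correction and quantile normalization between arrays, unless the deposited value table is named. That table holds the authors' own intensity per miRNA and pool, on a linear scale. The median of the empty spots was 150.2 to 491.3 on the 12 arrays. A probe counted as detected where 50% or more of its spots lay over the 95th percentile of those empty spots, and 37 to 168 miRNAs per array did so. Of the 168 probes, 127 were detected on at least 6 arrays and tested, and 35 were detected on all 12. Probes bind with different strength, so intensities of different probes are not molar amounts. For that reason the members are ordered below by signal only, and differences are read between pools. In pools of whole tissue, fewer cells of a type and less RNA per cell cannot be told apart. The p-values refer to the spread between pools of 5 bees.

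All 3 members were among the bright probes of this tissue, on every array. The 18 spots of each member lay above the 95th percentile of the empty spots in all 12 pools. In the deposited table, miR-317 took 5.46% ± 0.68 of the summed miRNA intensity, miR-277 took 4.76% ± 1.00 and miR-34 took 3.17% ± 0.48 (SD, n = 12). By scanner intensity, miR-317 stood at place 4 or 5 of 168 on every array, miR-277 between places 4 and 8, and miR-34 between places 6 and 10. Quantile normalization gives a probe of constant place a nearly constant value, which applies to miR-317. Before any normalization the lowest and highest arrays differed by 3.97-fold for miR-317, 3.87-fold for miR-34 and 3.51-fold for miR-277. The coefficient of variation over the spots of a member was 1.94% to 16.6% per array. By contrast, miR-3730, the further miRNA of the cluster, lay near the background. It was detected on 6 arrays, had deposited intensities of 14 to 59, and averaged 6.93 on the log2 scale in both groups.

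miR-277, the amino acid breakdown regulator of the fly, did not pass the test for a difference between the groups. Its log2 level in the dsRNA-GFP pools was 12.30 at the lowest, 12.75 at the median and 13.05 at the highest. In the dsRNA-Vg pools the corresponding values were 12.22, 12.71 and 13.26. The groups overlapped throughout, and the lowest and the highest of the 12 values both belonged to dsRNA-Vg, in pools 1 and 3. The mean was 12.73 ± 0.30 after dsRNA-GFP and 12.75 ± 0.42 after dsRNA-Vg (SD, n = 6 each). The difference, dsRNA-Vg minus dsRNA-GFP, was 0.025 (SE 0.20, 95% interval -0.41 to 0.46, limma adjusted p = 0.969). On quantile normalized values, that interval allows a level from 0.753-fold to 1.37-fold of the control. Over the other processings and sets of pools tried, the difference ran from -0.23 to 0.465, and the highest lay above the upper bound of 0.458. In the deposited table miR-277 read 6442, 7840.5 and 9626 (lowest, median, highest) after dsRNA-GFP and 5166, 7500.5 and 10712 after dsRNA-Vg. The deposited values of the groups overlapped as well, with the lowest and highest again in dsRNA-Vg pools 1 and 3.

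miR-317 was on average the brightest member and, after normalization, the least variable. Its log2 level was 13.05 at the median and 13.26 at the highest in the dsRNA-GFP pools, and the lowest of them, pool 5, read 12.996. In the dsRNA-Vg pools it was 12.96, 13.04 and 13.05. dsRNA-GFP pool 3, where miR-317 held place 4 and not 5, stood above the other pools of its group. dsRNA-Vg pool 4 stood below those of its own, and the remaining 10 pools lay close together. The difference was -0.050 (SE 0.042, 95% interval -0.14 to 0.042, limma adjusted p = 0.594). That interval holds only for quantile normalized values, which are nearly constant for a probe of constant place. The within-group SD of miR-317 was 0.066 on them and 0.30 with scaling to the other probes detected on all arrays. The sign of the difference followed the scaling between arrays. It was 0.54 with scaling to the median, 0.29 with no normalization between arrays and 0.20 with scaling to those other probes, each above that interval. The deposited intensities were 7633, 8891.5 and 10003 after dsRNA-GFP and 7235, 8826 and 10954 after dsRNA-Vg. The means of 8859 ± 846 and 8880 ± 1494 (SD, n = 6 each) differed by less than the spread between pools.

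miR-34, the age-linked member, had the largest difference of the 3 and did not pass the adjusted threshold. Its log2 level was 11.67, 11.90 and 12.36 (lowest, median, highest) in the dsRNA-GFP pools. It was 11.93, 12.22 and 12.69 in the dsRNA-Vg pools. Every summary value was higher after dsRNA-Vg, but the groups overlapped, with dsRNA-GFP pool 3 above 4 of the dsRNA-Vg pools. The mean was 11.95 ± 0.24 after dsRNA-GFP and 12.28 ± 0.30 after dsRNA-Vg (SD, n = 6 each). The difference was 0.33 (SE 0.15, 95% interval 0.0062 to 0.65), a level 1.26-fold that of the control. The unadjusted limma p was 0.0464 and the adjusted p over the 127 probes was 0.330, which placed miR-34 at place 16 by p. Unadjusted p-values under 0.05 were found for 14.2% of the tested probes. In the deposited table miR-34 read 3932, 4903 and 6171 after dsRNA-GFP and 4285, 5667 and 6237 after dsRNA-Vg. There the log2 difference was 0.12 (limma adjusted p = 0.808), and the groups overlapped.

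**Figure D1:**
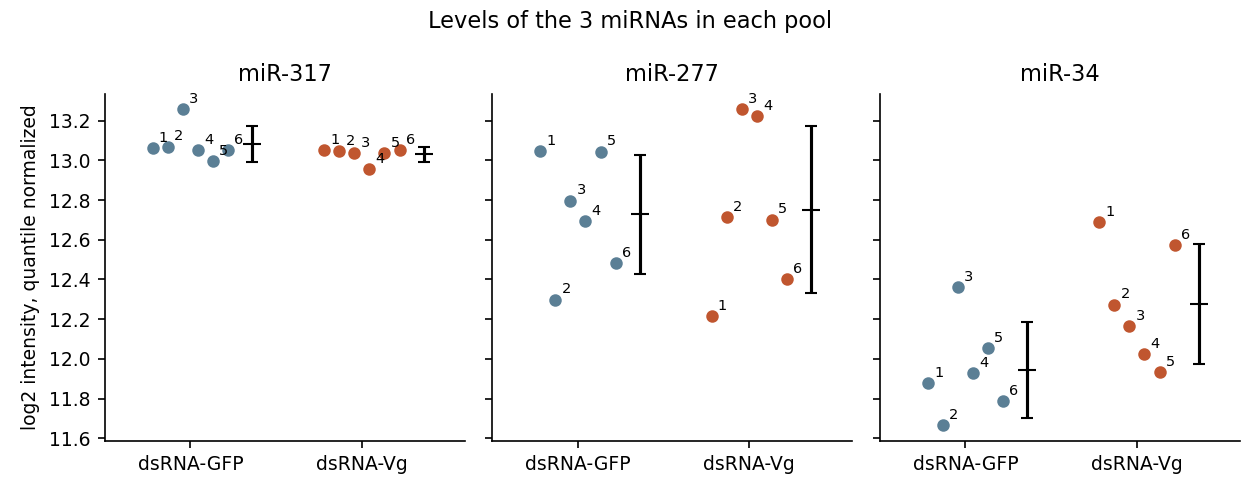
Quantile normalized log2 intensity (y axis) of miR-317, miR-277 and miR-34 in the 6 dsRNA-GFP and 6 dsRNA-Vg pools (x axis). Points are pools with their number, and the bar beside them is the mean with its SD. miR-317 stays between 12.96 and 13.26, miR-277 spans 12.22 to 13.26 with both extremes after dsRNA-Vg, and miR-34 averages 11.95 and 12.28 with overlapping groups.

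**Figure D2:**
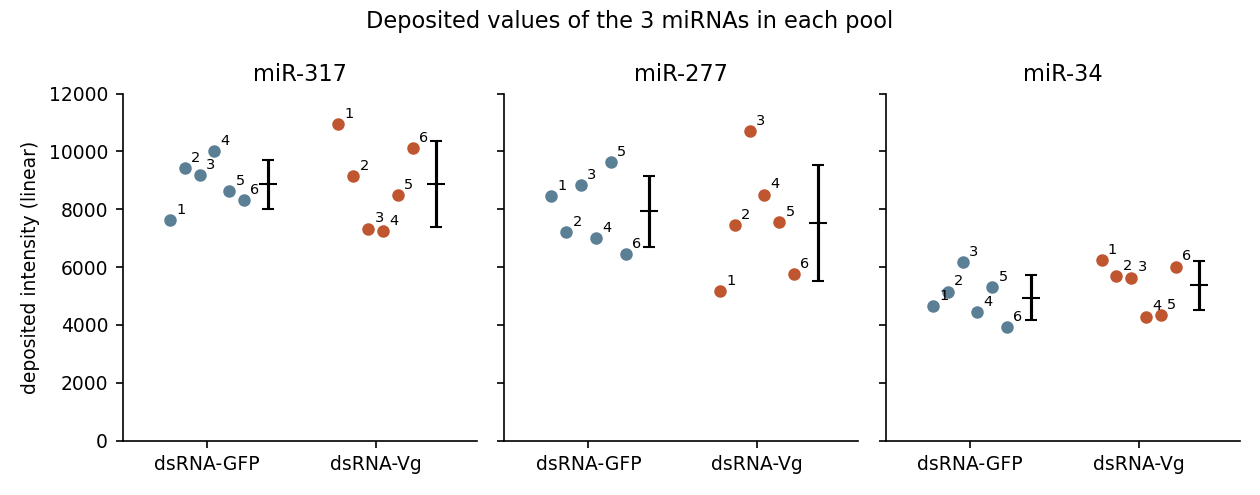
Intensity in the deposited value table (y axis, linear, from 0) of the same 3 miRNAs in each pool. Points are pools with their number, and bars are the mean with its SD. The groups overlap for all 3, and dsRNA-Vg pools 1 and 3 hold the lowest and the highest value of miR-277, 5166 and 10712.

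Of the 3 members, 0 passed the limma threshold of an adjusted p of 0.05, and 1 had an unadjusted p under 0.05. Over all tested probes 1.57% passed the adjusted threshold. The pools of the groups did not overlap for 0 of the 3 members, against 2.36% of all tested probes. The sign of the miR-34 difference was positive under each processing tried, with values of 0.12 to 0.78, and the adjusted p stayed above the threshold in each. The lowest value came from the deposited table and the highest from scaling to the median.

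**Figure D3:**
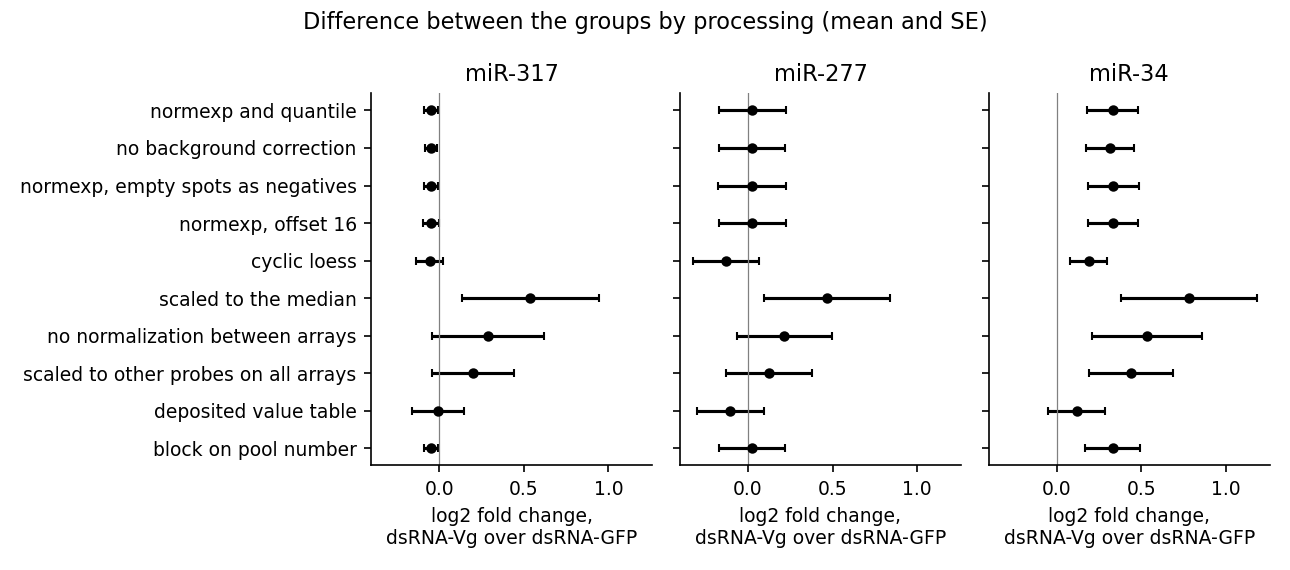
Log2 difference between dsRNA-Vg and dsRNA-GFP (x axis, point with its SE) for each member under 10 processings (y axis). miR-34 lies right of 0 in each, from 0.12 in the deposited table to 0.78 with scaling to the median, whereas miR-277 and miR-317 change sign among the processings.

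A scale factor of an array cancels in the ratio of 2 members on it, so ratios were taken before any normalization between arrays. Background, and a slope of the log2 signal that differs between arrays, do not cancel in this way. The log2 ratio of miR-317 to miR-34 was lower after dsRNA-Vg. It was 0.99, 1.07 and 1.27 (lowest, median, highest) in the dsRNA-GFP pools. It was 0.67, 0.91 and 0.97 in the dsRNA-Vg pools. All 6 dsRNA-Vg pools lay below all 6 dsRNA-GFP pools. The mean ratio was 1.11 ± 0.12 after dsRNA-GFP and 0.86 ± 0.13 after dsRNA-Vg (SD, n = 6 each). The difference was -0.24 (95% interval -0.41 to -0.085 from inverting the test), a ratio 0.844-fold that of the control. The two-sided exact permutation p was 0.00216, the smallest that 6 against 6 pools can give, and 0.00649 after Benjamini-Hochberg adjustment over the 3 ratios. Among all 595 ratios of 2 probes detected on all 12 arrays, 5.55% had groups that did not overlap. Of those 33 ratios, 26 had miR-3739 as a partner, a probe picked out after the values were seen.

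The separation of the miR-317 to miR-34 ratio was narrow. The nearest pools, dsRNA-Vg pool 5 and dsRNA-GFP pool 5, differed by 0.027, and the errors of their ratios from the spots were 0.021 and 0.020, so the order of that pair was not resolved. In the deposited table the mean log2 ratio was 0.85 after dsRNA-GFP and 0.73 after dsRNA-Vg, the groups overlapped, and the difference of -0.13 did not pass (exact permutation p = 0.338, adjusted p = 0.549). After quantile normalization and after cyclic loess the difference was -0.38 and -0.25, each with an adjusted p of 0.0519 (exact permutation). Leaving out single pools gave -0.27 to -0.21, with exact adjusted p-values of 0.00649 to 0.0195. The array's control reporters PUC2PM and a-PUC2PM also differed between the groups, by 1.41 and 1.37 on the log2 scale before normalization (limma adjusted p = 0.0412 and 0.0383), and they were 2 of 55 control reporters past the threshold. The brighter controls PUC2PM-20B, a2-PUC2PM-20B and a3-PUC2PM-20B differed by -0.12, 0.0031 and 0.024 and did not pass (limma adjusted p = 0.873, 0.993 and 0.965). The summed deposited intensity of the midgut markers miR-281, miR-1175 and miR-750 ranged from 223 to 6294 after dsRNA-GFP (median 2725.5) and from 175 to 5412 after dsRNA-Vg (median 213.5). The part of the control reporters and of the midgut markers in the ratio was not tested.

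The ratios with miR-277 did not differ between the groups by more than the pools did. The log2 ratio of miR-317 to miR-277 was -0.037, 0.38 and 0.57 (lowest, median, highest) after dsRNA-GFP and -0.41, 0.25 and 1.26 after dsRNA-Vg. The dsRNA-Vg pools enclosed the range of the dsRNA-GFP pools on both sides, and pool 3 was the lowest and pool 1 the highest. In dsRNA-GFP pools 1 and 5 and dsRNA-Vg pools 3 and 4, miR-277 had more signal than miR-317. The difference was 0.073 (95% interval -0.55 to 0.70, exact permutation p = 0.799, adjusted p = 0.799). The log2 ratio of miR-277 to miR-34 was 0.52, 0.74 and 1.15 after dsRNA-GFP and -0.30, 0.56 and 1.16 after dsRNA-Vg. Only dsRNA-Vg pools 1 and 6 had more signal from miR-34 than from miR-277. The difference was -0.32 (95% interval -0.92 to 0.28, exact permutation p = 0.264, adjusted p = 0.396). Both intervals hold differences as large as that of the miR-317 to miR-34 ratio.

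**Figure D4:**
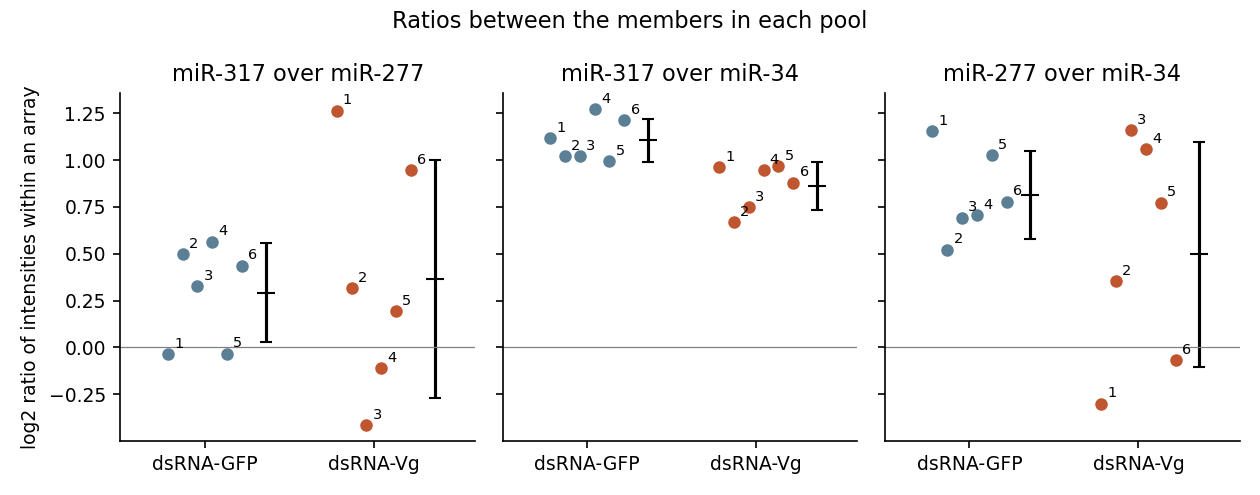
Log2 ratio of the intensities of 2 members within an array (y axis) in each pool, before normalization between arrays. Points are pools with their number, bars are the mean with its SD, and the line marks a ratio of 1. The miR-317 to miR-34 ratio is 0.99 to 1.27 after dsRNA-GFP and 0.67 to 0.97 after dsRNA-Vg, and the ratios with miR-277 spread over more than those ranges.

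Before normalization between arrays, miR-317 and miR-34 kept a steadier ratio to each other from pool to pool than either kept to miR-277. The spread of the ratios was not ranked in the deposited table. Among its dsRNA-GFP pools the log2 ratio of miR-317 to miR-34 ran from 0.57 to 1.17. That of miR-277 to miR-34 ran from 0.49 to 0.86, so miR-317 was not the steadier partner of miR-34 there. Before normalization, the within-group SD of the miR-317 to miR-34 ratio was 0.12 on the log2 scale. That of miR-317 to miR-277 was 0.49 and that of miR-277 to miR-34 was 0.46. These 2 spreads came mostly from the dsRNA-Vg pools, with SDs of 0.63 and 0.60, against 0.27 and 0.23 among the dsRNA-GFP pools. Over the 595 ratios of probes detected on all arrays the median was 0.54, and the miR-317 to miR-34 ratio held place 1 from the lowest. The ratios with miR-277 held places 229 and 200.

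The correlation of the members over the 12 pools, after removal of group means, depended on how arrays were scaled. On quantile normalized values, miR-317 and miR-34 gave Pearson r = 0.56 (exact permutation p = 0.0648, adjusted over 3 pairs p = 0.194) and Spearman rho = 0.51 (p = 0.0796, exact permutation). Without the 2 pools farthest from the median of miR-317, r was 0.48. miR-317 and miR-277 gave r = -0.23 (exact permutation p = 0.458, adjusted p = 0.458) and rho = -0.37 (exact permutation p = 0.201), and r = -0.58 without the 2 farthest pools. miR-277 and miR-34 gave r = -0.28 (exact permutation p = 0.413, adjusted p = 0.458) and rho = -0.098 (exact permutation p = 0.782), and r = -0.030 without the 2 farthest pools. This pair had r = 0.55 among the dsRNA-GFP pools and -0.76 among the dsRNA-Vg pools (n = 6 each, as a description), so the pooled value joins opposite signs. The difference between the groups was not tested. None of the 3 pairs passed on this scale, on which miR-317 hardly varies.

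When each array was instead scaled to the 32 other probes detected on all arrays, a choice made after seeing the data, miR-317 and miR-34 gave r = 0.94 (exact permutation p = 0.00128, adjusted p = 0.00384) and rho = 0.92 (exact permutation p = 0.00273). The coefficient was 0.93 among the dsRNA-GFP pools and 0.94 among the dsRNA-Vg pools. Of the 595 pairs of probes detected on all arrays, 0 had a higher r on that scale, and the median pair had -0.034. The 32 other probes set that scale and the members did not, so pairs of those probes are not a like comparison. Other scales placed more pairs above miR-317 and miR-34: 87 on quantile normalized values, 96 in the deposited table and 29 after cyclic loess. With no normalization between arrays it was 1 pair. With scaling to the other probes, miR-317 and miR-277 gave r = -0.016 (exact permutation p = 0.962) and miR-277 and miR-34 gave r = 0.16 (exact permutation p = 0.627). Both of these pooled values join opposite signs within the groups, which were not tested against each other. miR-317 and miR-277 had 0.70 among the dsRNA-GFP pools and -0.67 among the dsRNA-Vg pools, and miR-277 and miR-34 had 0.78 and -0.41. The levels on that scale were 12.96 ± 0.30 and 13.16 ± 0.34 for miR-317, and 11.86 ± 0.32 and 12.30 ± 0.36 for miR-34, after dsRNA-GFP and dsRNA-Vg (SD, n = 6 each). Both means were higher after dsRNA-Vg and neither difference passed (limma adjusted p = 0.557 and 0.546). In the deposited table miR-317 and miR-34 gave r = 0.50 (exact permutation p = 0.121, adjusted p = 0.181). There this pair had 0.24 among the dsRNA-GFP pools and 0.67 among the dsRNA-Vg pools. miR-277 and miR-34 had 0.74 and -0.46 in that table, so among its dsRNA-GFP pools miR-34 went more with miR-277 than with miR-317 (n = 6 each, as a description).

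In the deposited table and after cyclic loess, miR-317 and miR-277 ran opposite to each other. The deposited values gave r = -0.77 (exact permutation p = 0.0128, adjusted p = 0.0383), and cyclic loess gave r = -0.79 (exact permutation p = 0.0117, adjusted p = 0.0351). Among the dsRNA-Vg pools alone, the deposited values gave r = -0.94, and among the dsRNA-GFP pools -0.26, a difference that was not tested. In dsRNA-Vg pool 1 the deposited intensity was 10954 for miR-317 and 5166 for miR-277, and in dsRNA-Vg pool 3 it was 7327 and 10712. Without dsRNA-Vg pools 1 and 4, the farthest from the median of miR-317, the deposited values gave r = -0.67 (exact permutation p = 0.0646, n = 10). With no normalization between arrays the same pair gave r = 0.70, on a scale where the median of all pairs was 0.74.

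**Figure D5:**
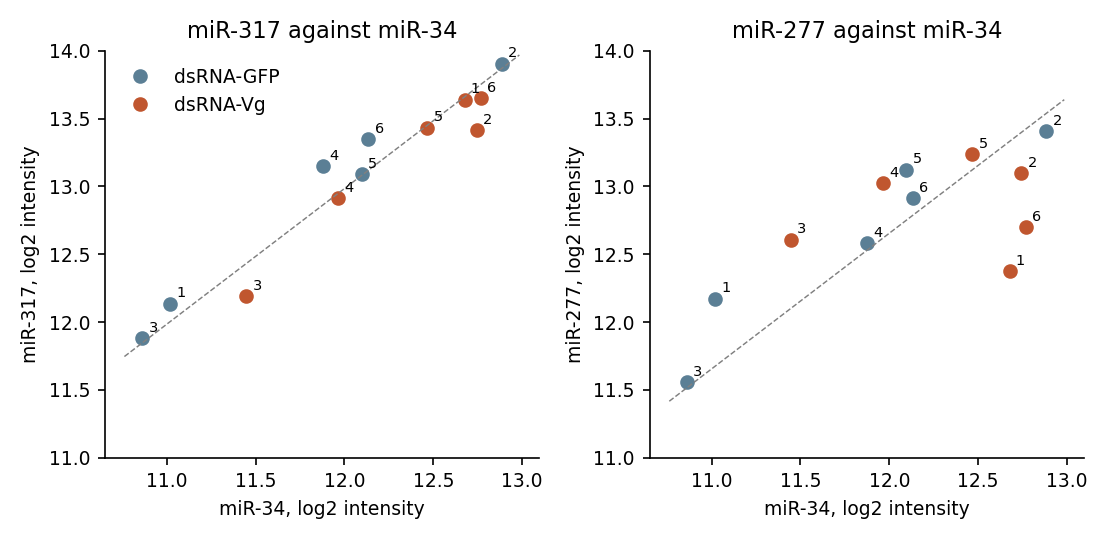
Log2 intensity before normalization between arrays of miR-317 (left, y axis) and miR-277 (right, y axis) against miR-34 (x axis) in the 12 pools, coloured by group and numbered by pool. The dashed line is the mean ratio of the 12 pools. For miR-317 the dsRNA-GFP pools lie above the line and the dsRNA-Vg pools below it, with a within-group SD of the ratio of 0.12. miR-277 scatters more widely about its line (0.46).

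The probes most like each member over the 12 quantile normalized pools are given as a description. For miR-277 the closest was miR-184, a conserved miRNA detected on all arrays, with r = 0.82, and this likeness was 0.79 in the deposited table and 0.88 with scaling to the other probes. miR-184 averaged 11.69 after dsRNA-GFP and 11.48 after dsRNA-Vg, a difference of -0.21 (SE 0.17, limma adjusted p = 0.594). The next were miR-3736 (0.75) and miR-2944 (0.73), detected on 7 and 8 arrays, and with scaling to the other probes these had -0.032 and -0.039. For miR-317 they were miR-3721 (0.69), miR-281 (0.67) and miR-3720 (0.67), none of which kept an r above 0.19 in the deposited table, and with scaling to the other probes they had -0.45, -0.48 and -0.44. For miR-34 they were miR-316 (0.83), miR-210 (0.81) and miR-318 (0.76), with 0.25, 0.46 and 0.57 in the deposited table and 0.18, -0.24 and -0.31 with scaling to the other probes. Neither miR-317 nor miR-34 was among the 3 closest of the other on quantile normalized values.

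Other miRNAs tied to lifespan or to metabolic ageing in flies or worms were set beside the cluster. All 10 were tested, 0 rose and 0 fell past the adjusted limma threshold, and 2 had an unadjusted p under 0.05. Over all tested probes these shares were 1.57% and 14.2%. Of the 10, 4 had positive and 6 negative differences, with a median of -0.022 against -0.0079 over all tested probes. miR-125, which times developmental transitions together with let-7, had a difference of 0.21 (SE 0.074, limma adjusted p = 0.217). miR-14, whose loss makes flies store more fat, had -0.31 (SE 0.12, limma adjusted p = 0.217). Its deposited values gave -1.83 (SE 0.70), with an adjusted p of 0.233 by limma. This probe was detected on 7 arrays and averaged 7.14 after dsRNA-GFP and 6.83 after dsRNA-Vg, near the level of miR-3730 and the background. let-7 had -0.33 (SE 0.20) and miR-278, which bears on insulin response in the fly, 0.41 (SE 0.29), with limma adjusted p-values of 0.432 and 0.510. The remaining members were miR-305 at 0.11, miR-100 at 0.084, miR-8 at -0.012, miR-282 at -0.032, miR-1000 at -0.11 and miR-71 at -0.20. Of these, miR-1000 was detected on 7 arrays and miR-282 on 9, and they too lay near the background, at 7.04 and 7.16 after dsRNA-GFP. With the deposited values let-7 had -0.68, miR-71 -0.64, miR-278 0.66, miR-305 0.41 and miR-1000 -0.30, and none of the 10 passed the adjusted limma threshold there.

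The tissue was checked against marker miRNAs. miR-8, which is abundant in fat body and also found elsewhere, was bright in both groups, with 15.12 after dsRNA-GFP and 15.11 after dsRNA-Vg. No miRNA known only from fat body was in the lists, so the tissue label rests on the dissection. The summed deposited intensity of the muscle markers miR-1 and miR-133 ranged from 1618 to 5224 after dsRNA-GFP and from 1835 to 3225 after dsRNA-Vg. The 5 nervous system markers (miR-124, miR-9a, miR-137, miR-7 and miR-932) summed to 228 to 375 and 174 to 341, and 3 of the 5 were tested. None of the tested muscle, nervous system or midgut markers passed the adjusted threshold, by limma, and miR-133 and miR-281 had unadjusted p-values of 0.0215 and 0.0447. Of all tested probes, 1.57% passed the adjusted threshold and 14.2% had an unadjusted limma p under 0.05. The log2 difference was -0.44 for miR-1, 0.44 for miR-133, -0.46 for miR-281, -1.17 for miR-1175 and -1.89 for miR-750.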

How the data were processed

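Small RNA from 12 pools was given a poly(A) tail and a tag and labelled with Cy3 at LC Sciences, per the labels' protocols. The deposited scanner files give, per the file headers, a median intensity for each of the 3968 spots of an array, without local background, slide or scan date. In the deposited value table there is 1 intensity for a miRNA in a pool (4 to 44058, medians of 24.0 to 41.5 per array). How the authors corrected and scaled the table was not stated in the sources used here. It is on a linear scale in the direction of the signal (slope of log2 deposited on log2 scanner values 0.89 to 1.19 per array, Spearman correlation 0.899 to 0.984, across miRNAs, which are not independent), and its centring stays unknown.

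Intensities were corrected with normexp on all spots (limma 3.58.1, R 4.3.3, offset 50). The miRNA spots were then quantile normalized as log2 values, and each probe got the mean of its 18 spots. A probe was detected where 50% or more of its spots lay over the 95th percentile of 628 empty spots, and was tested when detected on at least 6 of 12 arrays (127 tested, 41 not). The highest spot read 61540, under the 16-bit limit of 65535. No 2 arrays held identical values, and arrays correlated at 0.921 to 0.996. On 6 arrays (dsRNA-GFP pools 1, 2, 3 and 6, dsRNA-Vg pools 3 and 5) dimmer probes had a median over that percentile, so detection is lenient there.

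The test between groups was limma's (lmFit, eBayes, group only), with Benjamini-Hochberg adjustment over 127 probes and a threshold of 0.05. Ratios and correlations used two-sided exact permutation tests (Python 3.11.15, scipy 1.17.1). The tests were checked on simulated data. The alternatives changed the background correction, the offset, the scaling between arrays, the filter, the source of the values and the pools. The number of arrays limits the precision.

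The miRNAs named were the 3 members, for each member the 3 tested probes with the highest Pearson correlation, any reporter of the same seed, and fixed lists of lifespan and cell type miRNAs. Members and lists were chosen with earlier results of these data known. Gene order came from the RefSeq table of Amel_HAv3.1.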

Additional observations from a re-analysis of the deposited data

Results flagged for a closer look

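After quantile normalization, miR-317 read 13.26 on the log2 scale in dsRNA-GFP pool 3, far above the nearest pool of its group at 13.07. It read 12.96 in dsRNA-Vg pool 4, far below the nearest at 13.04. In dsRNA-GFP pool 3 it held place 4. At that place miR-277 read 13.26 and 13.22 in dsRNA-Vg pools 3 and 4, but 13.05 and 13.04 in dsRNA-GFP pools 1 and 5. The unnormalized intensity of miR-317 in dsRNA-GFP pool 3, 3942, was its lowest on any array, and its deposited value was 9168. In dsRNA-Vg pool 4 the deposited value of miR-317, 7235, was the lowest of its group. Among the probes most like the members, miR-3721 read 7.03 in dsRNA-GFP pool 3 against 6.93 in the nearest pool, and miR-210 read 7.83 in dsRNA-Vg pool 1 against 7.39. These are 4 of 50 groups of pools checked for a pool far from the rest, where chance alone gives about 2.5.

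The control reporters PUC2PM and a-PUC2PM stand outside the miRNA comparison, and their unnormalized log2 signal was higher after dsRNA-Vg by 1.41 and 1.37 (limma adjusted p = 0.0412 and 0.0383). PUC2PM read 9.77 ± 0.62 after dsRNA-GFP and 11.18 ± 0.74 after dsRNA-Vg (SD, n = 6 each). The brighter PUC2PM-20B, which did not pass, read 14.91 ± 0.77 and 14.79 ± 0.76.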

How the results depend on the processing

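No member passed the adjusted threshold under any alternative run, and miR-34 kept its positive sign in all of them. The miR-317 to miR-34 ratio kept its negative sign, but its call ended with quantile normalization (-0.38), cyclic loess (-0.25), the deposited table (-0.13), the replicate block (-0.24, exact adjusted p = 0.0938, the smallest that 6 pairs allow after adjustment) and without the 6 arrays of lenient detection (-0.27, exact adjusted p = 0.4, where the 2 dsRNA-GFP and 4 dsRNA-Vg pools left cannot give an unadjusted p under 0.0667). The labels do not say that pool numbers mark a shared source. Same-numbered deviations correlated at -0.33, 0.091, 0.70, 0.56, -0.20 and 0.32, not all above 0.1. Of the 12 pools, 5 matched best their own number, among 6 candidates each. These values do not settle whether same-numbered pools are paired, and the main tests did not use the numbers as pairs. The replicate block gave 3 miRNAs past the threshold instead of 2 and left miR-277, miR-317 and miR-34 uncalled. It gave 23 probes with an unadjusted limma p under 0.05 instead of 18. The count was 1 with median scaling, no normalization, scaling to the other probes and detection on all 12 arrays, and 0 without the 6 lenient arrays (limma, 13 at an unadjusted p under 0.05).

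Values that turned sign were as follows, and the cause was not tested. With median scaling the differences were 0.54 for miR-317, 0.38 for miR-8 and 0.36 for miR-184. With no normalization they were 0.29 for miR-317, 0.14 for miR-8, 0.11 for miR-184, -0.15 for miR-100, -0.034 for miR-125, -0.19 for miR-3736, -0.12 for miR-210 and -0.17 for miR-318. With scaling to the other probes they were 0.20 for miR-317, 0.045 for miR-8, 0.022 for miR-184, -0.24 for miR-100, -0.12 for miR-125, -0.28 for miR-3736, -0.21 for miR-210 and -0.26 for miR-318. Cyclic loess gave -0.13 for miR-277, -0.12 for miR-100 and 0.0034 for miR-2944. The deposited table gave -0.10 for miR-277, 0.022 for miR-8, -0.13 for miR-100 and -0.019 for miR-3736. Without the lenient arrays the values were -0.23 for miR-277, 0.0035 for miR-317 and -0.012 for miR-100. The median difference of all tested probes was -0.22 with no normalization, -0.32 with scaling to the other probes, 0.025 with median scaling and -0.052 in the deposited table. The ratio of miR-317 to miR-277 was -0.075 after quantile normalization.

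Correlations changed most with the scaling. miR-317 and miR-277 gave 0.77 with median scaling, 0.70 with none, -0.77 in the deposited table and -0.79 after cyclic loess. miR-317 and miR-34 gave 0.99, 0.98, 0.68 after cyclic loess and 0.94 with scaling to the other probes. miR-277 and miR-34 gave 0.79, 0.72 and, with scaling to the other probes, 0.16.

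Leaving out single pools gave -0.076 to 0.13 for miR-277, -0.067 to -0.015 for miR-317, 0.25 to 0.41 for miR-34, -0.084 to 0.058 for miR-8, -0.091 to 0.30 for miR-305 and -0.040 to 0.0084 for miR-2944, and 2 to 3 miRNAs past the threshold. The ratio of miR-317 to miR-277 ranged from -0.11 to 0.23, that of miR-317 to miR-34 from -0.27 to -0.21 and that of miR-277 to miR-34 from -0.45 to -0.16. Correlations ranged from -0.63 to -0.079 for miR-317 and miR-277, from 0.22 to 0.68 for miR-317 and miR-34, and from -0.50 to -0.021 for miR-277 and miR-34. Scaling to the other probes, leaving out the lenient arrays, and cyclic loess and the lower offset for ratios and correlations were chosen after seeing the data. A slide or scan date as a block was not run, since the files give neither. Dim probes such as miR-3721, miR-3736, miR-3730, miR-14 and miR-1000 lie near the empty spots, and their differences are shrunk by the offset.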
